A study of Mus musculus with 27 samples.

Results

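The genes described here encode the matrix metalloproteinases (Mmp), the ADAMTS proteases and their tissue inhibitors (Timp). They were taken by symbol from the expression tables of a mouse cell series: every symbol formed of Mmp and a number with an optional a or b, Adamts and a number, or Timp and a number from 1 to 4. The rule found 46 genes, 23 Mmp, 19 Adamts and 4 Timp, of 24892 gene symbols listed in either table. The cells were NMuMG, an epithelial line from normal mouse mammary gland that undergoes an epithelial-to-mesenchymal transition (EMT) when transforming growth factor (TGF)-β is added. Parental cells, cells infected with an irrelevant shRNA (control, C) and cells infected with an shRNA against lamin B1 (KD) were each untreated or treated with TGF-β (1 to 5 ng/ml) for 8 or 24 h, with 2 biological replicates per group. The KD was held at a partial level by design, and both shRNA groups, unlike parental cells, were infected and selected with puromycin. Of the 27 samples of the series, 18 RNA-seq libraries were used, together with 1 lamin B1 ChIP-seq and 1 ATAC-seq peak list per time point in parental cells, ATAC-seq being a transposase assay of open chromatin.

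Mmp and ADAMTS proteins are zinc-dependent endopeptidases that cut collagens, proteoglycans, fibronectin and other parts of the extracellular matrix. Most are made as inactive precursors, and membrane-type Mmp such as Mmp14 stay on the cell surface, where Mmp14 with Timp2 activates pro-Mmp2. Timp proteins bind the active site and block the enzymes, and Timp3 also blocks several ADAMTS and ADAM proteases. In EMT, cells change which matrix they make and degrade, and these genes are commonly followed as part of the mesenchymal program.

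Expression was given as FPKM, fragments scaled to transcript length and to the mapped fragments of the library, so that levels can be compared between genes within a table. The sequencing depth itself is unknown, and the steps between low FPKM values placed the libraries at 93.0 to 116% of the first library in the parental table and at 79.3 to 113% in the shRNA table. Lmnb1, the targeted gene, was at 17.9 to 36.5 FPKM in the 6 C libraries and at 4.37 to 9.27 FPKM in the 6 KD libraries, with no overlap, and in parental cells it was at 36.9 and 36.3 FPKM untreated and 19.5 and 17.6 FPKM at 24 h. In the KD group at 24 h the replicates stood apart, with Lmnb1 at 4.37 and 7.52 FPKM. All 5 epithelial markers (Cdh1, Epcam, Krt8, Krt18 and Cldn4) and all 5 mesenchymal markers (Vim, Fn1, Cdh2, Col1a1 and Acta2) reached 1 FPKM in both tables. Of 5 leukocyte markers only Cd68 reached 1 FPKM, with Ptprc at up to 0.0178 FPKM and the summed level at 1.09 to 2.08 FPKM over all groups. None of 4 endothelial markers reached 1 FPKM, although their sum was at 1.08 to 1.66 FPKM in the parental libraries and at 0.0132 to 0.608 FPKM in the shRNA table. Of 3 adipocyte markers Fabp4 alone reached 1 FPKM, in parental cells only (4.61 to 5.87 FPKM), and Adipoq was listed at 0 in all parental libraries. The part of such cells in the results below was not tested. In bulk RNA, fewer cells of a type and less RNA per cell cannot be told apart.

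In NMuMG cells the protease and inhibitor genes fell into a set that was expressed and a larger one at low levels or silent. Of the 46 genes 19 in each table reached 1 FPKM in at least 2 libraries and were tested, 17 of them in both tables and 21 in either. The summed level of all 46 genes was 360 and 364 FPKM in untreated parental cells, 521 and 480 FPKM at 8 h, then 800 and 779 FPKM at 24 h. Only 4 genes, Timp1, Timp2, Timp3 and Mmp14, made up 85.5 to 91.5% of that sum in parental libraries and 88.6 to 96.1% in the shRNA table. Mmp14 alone held 59.0 to 81.7% of the summed Mmp level in parental libraries.

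The other 25 genes were below that level in both tables. Among them Adamts20 and Mmp20, the enamel protease, were listed at 0 in all 18 libraries, and Mmp21 was at most at 0.00977 FPKM. Mmp8 (highest value 0.0132 FPKM), Mmp1a (0.0292 FPKM) and Mmp1b (0.0322 FPKM), which are collagenases, and Mmp7 (0.0443 FPKM), a matrilysin, were close to 0 throughout. Mmp25 (0.0298 FPKM) and Mmp27 (0.0409 FPKM) were as low. The procollagen N-propeptidases Adamts2 (0.253 FPKM), Adamts3 (0.0756 FPKM) and Adamts14 (0.851 FPKM) also stayed below 1 FPKM. So did the proteoglycan-cleaving Adamts5 (0.182 FPKM), Adamts8 (0.110 FPKM) and Adamts9 (0.586 FPKM). The lesser known Adamts16, Adamts17, Adamts18 and Adamts19 reached 0.767, 0.0492, 0.0449 and 0.0595 FPKM. The highest values of Mmp3, a stromelysin, Mmp16 and Mmp17, which are membrane-type enzymes, and Mmp23 were 0.788, 0.336, 0.367 and 0.250 FPKM. Mmp12, the macrophage elastase, was listed at 0 in untreated parental cells and reached 0.881 and 1.03 FPKM at 24 h, and Timp4 reached 0.0635 FPKM. Mmp1a and Mmp1b are close paralogs between which reads may be split.

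Of the 46 genes, 10 lie in a single cluster on chromosome 9 (mm9, chr9:7272514-7699585, 427 kb), in the order Mmp13, Mmp12, Mmp1b, Mmp3, Mmp1a, Mmp10, Mmp8, Mmp27, Mmp20 and Mmp7. Only Mmp13 and Mmp10 passed the expression filter there. RefSeq promoter windows (GRCm38.p6, from 250 bases before to 50 after the start) were found for 32 of the 46 symbols, 35 windows in all, and each was placed on mm9 by an exact match. The binding letters of AP-1, a factor known to act on Mmp genes, were searched loosely as TGANTCA, where N is any base. The letters read the same on both strands. They were present in 8 of the 35 windows (22.9%), against 7.81% of 32851 promoter windows in the whole table. All 8 belonged to the chromosome 9 cluster, which holds 12 windows, and none to the 23 windows of the other genes. The 120 bases before the start of these 8 are shown because they share this element whether the gene passed the expression filter (Mmp13, Mmp10) or did not (the others), with the AP-1 letters in capitals, 5′ to 3′ on the strand of the gene.
Mmp13: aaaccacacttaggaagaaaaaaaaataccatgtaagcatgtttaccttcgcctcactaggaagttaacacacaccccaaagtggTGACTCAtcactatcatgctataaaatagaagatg
Mmp10: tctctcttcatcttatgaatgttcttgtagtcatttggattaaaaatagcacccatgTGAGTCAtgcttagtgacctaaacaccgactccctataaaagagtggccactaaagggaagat
Mmp3: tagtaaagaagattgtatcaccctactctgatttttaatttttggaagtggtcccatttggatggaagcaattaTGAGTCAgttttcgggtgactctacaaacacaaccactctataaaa
Mmp12: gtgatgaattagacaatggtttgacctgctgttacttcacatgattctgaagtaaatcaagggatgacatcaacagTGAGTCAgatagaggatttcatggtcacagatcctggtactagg
Mmp1a: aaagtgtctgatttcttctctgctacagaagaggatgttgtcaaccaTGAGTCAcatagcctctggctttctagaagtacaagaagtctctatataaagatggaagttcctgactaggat
Mmp1b: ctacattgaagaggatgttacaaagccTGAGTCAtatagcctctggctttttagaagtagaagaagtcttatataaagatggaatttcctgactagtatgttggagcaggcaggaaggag
Mmp7: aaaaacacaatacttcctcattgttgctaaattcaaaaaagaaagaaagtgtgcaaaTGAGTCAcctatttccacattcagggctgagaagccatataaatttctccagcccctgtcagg
Mmp20: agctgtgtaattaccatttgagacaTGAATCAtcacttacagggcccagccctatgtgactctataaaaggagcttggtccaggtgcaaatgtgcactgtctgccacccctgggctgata

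The letters began 35 bases before the start in Mmp13 (chr9:7272394-7272513, plus strand), 63 bases before it in Mmp10 (chr9:7502222-7502341, plus strand) and in Mmp7, 44 in Mmp12 (at the RefSeq start 2993 bp downstream of the annotated gene start), 46 in Mmp3, 73 in Mmp1a, 93 in Mmp1b and 95 in Mmp20. The other Mmp12 window, 16 bp from the annotated start, holds no match. Mmp13 carries TGACTCA, Mmp20 TGAATCA and the other 6 TGAGTCA. Cluster windows had a median GC content of 41.7% (37.7 to 52.0%), the other windows of the group 64.7% (53.3 to 80.0%), and all promoter windows 52.7%. A pair of Smad letter strings, GTCTAGAC and CAGACAGA on either strand, was in 2 of the 35 windows (5.71%), those of Mmp8 and Timp4, against 2.74% of all windows. A match is a description of the letters and does not show that a factor binds.

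The inhibitors rose with TGF-β in parental cells. Timp1, a secreted inhibitor of most Mmp, was at 60.3 and 59.4 FPKM untreated, at 158 and 125 FPKM at 8 h and at 224 and 216 FPKM at 24 h. The 3 groups did not overlap, and the log2 difference on the log2(FPKM + 1) scale was 1.22 ± 0.0964 (SE) at 8 h and 1.86 ± 0.0964 at 24 h (limma, adjusted p = 0.000108 and 4.81e-06). Timp3, which is held in the matrix, was at 12.4 and 12.4 FPKM, then 42.2 and 36.4 FPKM, then 75.0 and 70.1 FPKM. It rose at each step, by 1.59 ± 0.0715 at 8 h and 2.46 ± 0.0715 at 24 h (adjusted p = 2.89e-05 and 6.7e-07). Timp2, which had the highest level of the 46 genes in untreated cells, stayed at 186 and 189 FPKM untreated and 187 and 187 FPKM at 8 h, and reached 279 and 273 FPKM at 24 h. Its rise was called at 24 h only (0.56 ± 0.0351, adjusted p = 1.11e-05). The summed Timp level per unit of Mmp14 was 5.01 and 5.16 untreated, 4.27 and 4.04 at 8 h and 3.88 and 3.88 at 24 h. The ratio fell, as Mmp14 rose by a larger factor than the sum of all Timp genes. In C cells this ratio was 4.14 and 4.15, then 6.2 and 5.95, then 4.45 and 4.18, and in KD cells 4.50 and 4.74, then 7.66 and 7.24, then 5.68 and 4.19, so that it was highest at 8 h in both. Timp1 and Timp3 overlap Syn1 and Syn3 in the annotation, and reads of overlapping genes may be shared where counting ignores the strand.

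Membrane-type Mmp14 had the highest transcript level of the Mmp and ADAMTS genes in these cells. It was at 51.6 and 50.6 FPKM untreated, 90.6 and 86.2 FPKM at 8 h, then 149 and 144 FPKM at 24 h. All treated libraries were above the untreated ones, with a log2 difference of 0.78 ± 0.0408 at 8 h and 1.5 ± 0.0408 at 24 h (adjusted p = 3.53e-05 and 6.11e-07). Mmp15, another membrane-type enzyme, moved little, from 5.72 and 6.54 FPKM to 6.79 and 7.68 FPKM at 8 h, then 7.29 and 7.53 FPKM at 24 h. Its call at 24 h (0.24 ± 0.0788, adjusted p = 0.0286) was lost without 1 untreated or without either 24 h library (adjusted p up to 0.160).

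Of the secreted Mmp that were tested, 5 were higher at 24 h. Mmp9, a gelatinase, was at 0.0403 and 0.0302 FPKM untreated, 0.424 and 0.227 FPKM at 8 h, then 1.93 and 1.93 FPKM at 24 h (1.5 ± 0.0903, adjusted p = 8.97e-06). Mmp2, the other gelatinase and the substrate of Mmp14, went from 0.365 and 0.50 FPKM through 0.539 and 0.490 FPKM to 1.02 and 1.17 FPKM. Mmp10, stromelysin-2, went from 0.157 and 0.255 FPKM through 0.550 and 0.635 FPKM to 1.36 and 1.38 FPKM. These 3 passed the filter only through their 24 h libraries, which were the highest, so their call at 24 h was in part set by the filter. Mmp11, stromelysin-3, which is activated inside the cell by furin, was above 1 FPKM throughout and rose from 2.57 and 2.16 FPKM to 3.80 and 3.41 FPKM and then 10.2 and 10.3 FPKM (1.74 ± 0.0781 at 24 h, adjusted p = 2.74e-06). Mmp11 overlaps Chchd10 in the annotation. Mmp19 was at 0.847 and 1.01 FPKM, 0.792 and 0.742 FPKM, and 2.66 and 2.89 FPKM, a rise at 24 h only (0.97 ± 0.0764, adjusted p = 3.11e-05). Mmp19 would not have passed the filter without its 24 h libraries, so this call too was in part set by the filter.

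Mmp13, a collagenase, and Mmp28, epilysin, were the most abundant secreted Mmp before treatment and fell. Mmp13 was at 9.79 and 11.9 FPKM untreated, 3.16 and 5.05 FPKM at 8 h, then 2.94 and 3.69 FPKM at 24 h. It fell by 1.23 on the log2 scale at 8 h and by 1.46 at 24 h (SE 0.182, adjusted p = 0.00139 and 0.000314), and the 8 and 24 h libraries overlapped. Mmp28 was at 12.1 and 12 FPKM, 8.96 and 9.11 FPKM, and 3.64 and 3.83 FPKM. Its fall was small at 8 h (-0.38 ± 0.0504) and larger at 24 h (-1.46 ± 0.0504, adjusted p = 1.06e-06). Mmp10, which lies in the same cluster as Mmp13, was higher at 24 h in parental cells, but it passed the filter only through those libraries. In KD cells Mmp10 was called lower than untreated at 8 h, as was Mmp13.

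**Figure D1:**
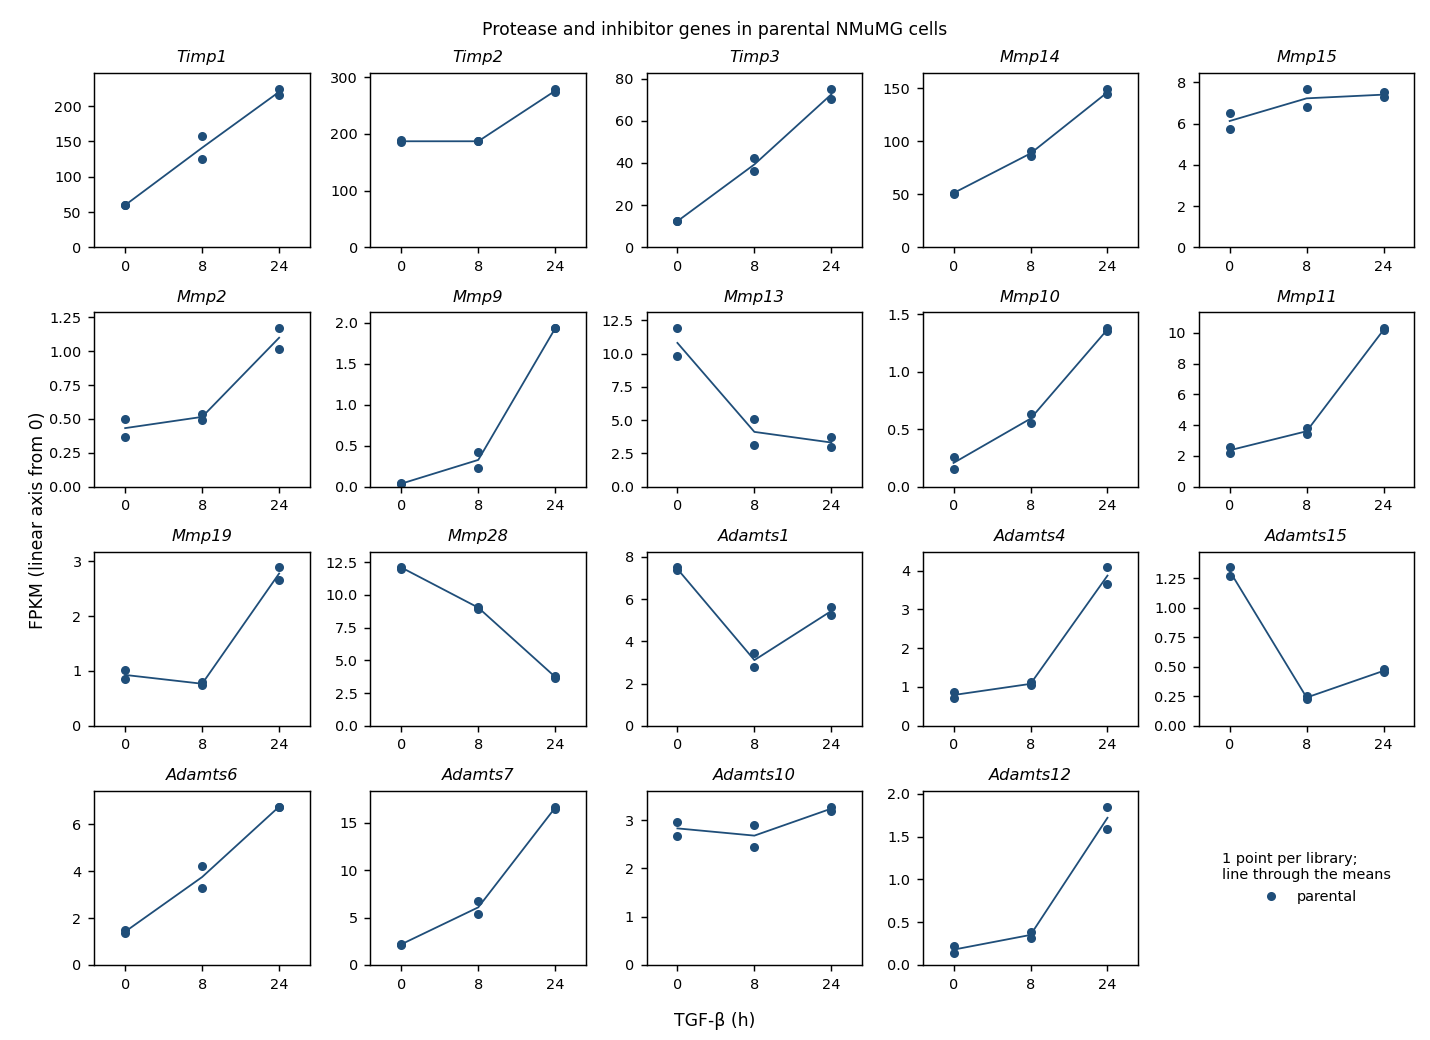
FPKM of the 19 tested genes in parental NMuMG cells (y axis, linear from 0) against hours of TGF-β (x axis, time points evenly spaced). Each point is 1 of 2 libraries and the line joins the means; Timp1, Timp3, Mmp14, Adamts6 and Adamts7 climb at both steps, Mmp28 falls at both, and Adamts1 and Adamts15 are lowest at 8 h.

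ADAMTS genes changed in several patterns. Adamts7 and Adamts12, which cut cartilage oligomeric matrix protein, rose. Adamts7 was at 2.15 and 2.21 FPKM untreated, 6.78 and 5.38 FPKM at 8 h, then 16.7 and 16.5 FPKM at 24 h, the highest ADAMTS level (2.47 ± 0.0915 at 24 h, adjusted p = 1.36e-06). Adamts12 was at 0.137 and 0.220 FPKM, 0.391 and 0.312 FPKM, and 1.59 and 1.85 FPKM, and passed the filter only through its 24 h libraries. Adamts6, linked to fibrillin microfibrils, climbed from 1.49 and 1.35 FPKM to 4.21 and 3.30 FPKM and 6.75 and 6.75 FPKM (1.68 ± 0.0955 at 24 h, adjusted p = 6.94e-06). Its relative Adamts10 was at 2.97 and 2.68 FPKM untreated, 2.45 and 2.91 FPKM at 8 h, then 3.20 and 3.28 FPKM at 24 h, with no call in the 3 parental comparisons.

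The proteoglycan-cleaving enzymes, which act on versican and aggrecan, did not share a direction. Adamts4 was at 0.716 and 0.868 FPKM untreated, 1.05 and 1.12 FPKM at 8 h, then 4.08 and 3.65 FPKM at 24 h (1.44 ± 0.0794, adjusted p = 6.1e-06). Adamts4 passed the filter only through its treated libraries, so its call was in part set by the filter. Adamts1 fell from 7.36 and 7.50 FPKM to 2.78 and 3.45 FPKM at 8 h (-1.04 ± 0.0856, adjusted p = 0.000122) and came back to 5.24 and 5.64 FPKM at 24 h, still below the untreated cells (-0.39 ± 0.0856, adjusted p = 0.00526) and above the 8 h cells (0.65 ± 0.0856, adjusted p = 0.000842). Adamts15 was at 1.34 and 1.27 FPKM untreated, 0.250 and 0.227 FPKM at 8 h, then 0.452 and 0.478 FPKM at 24 h, and it passed the filter only through the untreated libraries.

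In counts, at 8 h 8 of the 19 tested genes were higher and 4 lower than in untreated parental cells at an adjusted p under 0.05, where 22.4% of all 11309 genes tested were higher and 32.1% lower. At 24 h 14 were higher and 4 lower (33.4 and 37.1% of all genes), and between 8 and 24 h 15 were higher and 1, Mmp28, lower (27.7 and 24% of all genes). Changes of at least 2-fold on the log2(FPKM + 1) scale were called for 5 genes at 8 h and 11 at 24 h, where 4.3 and 11.8% of all genes passed. At 24 h the median difference was 0.97 over these 19 genes and -0.02 over all genes, and the median absolute difference 1.44 and 0.29. Mmp2, Mmp9, Mmp10, Adamts12 and Adamts15 entered through 1 group only, and Mmp19 and Adamts4 would not have passed without the treated libraries, so these counts describe the genes and do not support a trend.

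The same time course was given by cells infected with the control shRNA, in a table that was made separately, so levels are compared within it. Timp1 was at 67.7 and 72.1 FPKM in untreated C cells, 305 and 301 FPKM at 8 h, then 409 and 418 FPKM at 24 h. Timp3 was at 9.84 and 11.6 FPKM, 75.4 and 72.5 FPKM, and 133 and 116 FPKM (3.42 ± 0.08 at 24 h, adjusted p = 4.4e-09). Both rose with no overlap at either time. Timp2 fell at 8 h, from 279 and 242 FPKM to 184 and 176 FPKM (-0.53 ± 0.0634, adjusted p = 0.000106), and at 24 h was back at 266 and 265 FPKM. Mmp14 was at 86.0 and 78.6 FPKM, 91.1 and 92.5 FPKM, and 182 and 191 FPKM, a rise of 1.17 ± 0.0561 at 24 h (adjusted p = 2.07e-07). At 8 h its difference was 0.16 ± 0.0561, with a call that was lost without 1 untreated library or either 8 h library (adjusted p up to 0.206).

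Mmp13 fell from 11.6 and 11.7 FPKM to 3.37 and 2.47 FPKM at 8 h, then 2.48 and 1.96 FPKM at 24 h in C cells (-1.98 ± 0.124 at 24 h, adjusted p = 1.05e-06). Mmp28 fell from 6.49 and 6.11 FPKM to 2.90 and 2.85 FPKM and 1.97 and 1.82 FPKM (-1.33 ± 0.0703 at 24 h, adjusted p = 3.56e-07). Mmp9 was listed at 0 in 1 untreated C library and at 0.0158 FPKM in the other, and reached 0.308 and 0.300 FPKM at 8 h, then 2.68 and 2.95 FPKM at 24 h. Adamts6 climbed from 1.59 and 1.68 FPKM to 5.78 and 5.06 FPKM and 8.92 and 8.86 FPKM, and Adamts7 from 1.86 and 1.29 FPKM to 4.27 and 3.71 FPKM and 7.74 and 8.11 FPKM. Adamts1 fell from 9.57 and 5.93 FPKM to 1.65 and 1.60 FPKM at 8 h and was at 2.23 and 1.89 FPKM at 24 h.

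In KD cells Mmp9 and 3 ADAMTS genes were followed over the same times. Mmp9 reached 0.253 and 0.250 FPKM at 8 h, then 2.08 and 2.22 FPKM at 24 h, and no fold is given for it because both untreated libraries were listed at 0. Adamts6 climbed from 1.94 and 2.07 FPKM to 5.94 and 5.55 FPKM and 8.34 and 8.11 FPKM, and Adamts7 from 0.659 and 0.782 FPKM to 4.34 and 4.22 FPKM and 8.48 and 11.6 FPKM. Adamts1 went from 3.77 and 3.44 FPKM to 1.06 and 1.01 FPKM and 1.17 and 2.48 FPKM. The 2 KD libraries at 24 h were thus apart for Adamts1, as for Timp1 and Lmnb1.

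Adamts4 was at 0.141 and 0.113 FPKM in untreated C cells, 0.352 and 0.385 FPKM at 8 h, then 1.69 and 1.83 FPKM at 24 h, and in KD cells at 0.117 and 0.0552 FPKM, 0.193 and 0.256 FPKM, and 0.844 and 1.48 FPKM. Adamts12 was at 0.0485 and 0.0648 FPKM in untreated C cells, 0.125 and 0.124 FPKM at 8 h, then 0.601 and 0.853 FPKM at 24 h, and in KD cells it went from 0.0795 and 0.106 FPKM through 0.176 and 0.205 FPKM to 1.47 and 1.51 FPKM. Both were highest at 24 h in each cell type. Mmp11 was at 4.71 and 3.05 FPKM, 2.94 and 2.66 FPKM, and 7.10 and 6.92 FPKM in C cells, and at 2.22 and 2.07 FPKM, 2.46 and 2.55 FPKM, and 5.91 and 8.31 FPKM in KD cells, with a call at 24 h in both. Adamts10 was at 1.96 and 1.55 FPKM, 1.85 and 1.72 FPKM, and 2.48 and 2.26 FPKM in C cells, and at 1.84 and 1.80 FPKM, 1.45 and 1.38 FPKM, and 1.72 and 2.13 FPKM in KD cells. Adamts13 was at 4.84 and 4.78 FPKM, 5.90 and 5.39 FPKM, and 4.17 and 4.36 FPKM in C cells, and at 5.31 and 4.86 FPKM, 5.31 and 5.04 FPKM, and 4.36 and 4.87 FPKM in KD cells. Their only calls with time were in C cells, for Adamts10 at 24 h (0.29, adjusted p = 0.0165) and Adamts13 at 8 h (0.19, adjusted p = 0.0322), and each was lost without some single libraries (adjusted p up to 0.109 and 0.193).

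Over the 3 cell settings 9 genes were higher at 24 h than untreated in each, Timp1, Timp3, Mmp9, Mmp11, Mmp14, Adamts4, Adamts6, Adamts7 and Adamts12, and 3 were lower in each, Mmp13, Mmp28 and Adamts1. The share of all genes called alike in all 3 settings was not computed, so these counts only describe the genes. In the shRNA table Mmp9, Adamts4 and Adamts12 reached 1 FPKM only in 24 h libraries, so they were tested only through the groups where they were high. The direction of the calls differed between settings for 3 genes, but the parental side of each was limited. Parental Adamts15 passed the filter only through the untreated libraries, and parental Mmp10 only through the 24 h libraries, where each was highest. The parental Mmp15 call at 24 h was lost under 4 of 8 alternatives. Adamts15 was lower in parental cells at 24 h but higher in C cells, at 1.27 and 1.00 FPKM untreated and 2.23 and 1.81 FPKM at 24 h (0.50 ± 0.121, adjusted p = 0.0053). Mmp10 was higher in parental cells, and in KD cells it went from 1.90 and 2.72 FPKM to 0.726 and 0.838 FPKM at 8 h, then 1.08 and 1.67 FPKM at 24 h (-0.48 ± 0.144 at 24 h, adjusted p = 0.0144, lost without 1 untreated or 1 24 h library, adjusted p up to 0.118). In C cells it was at 1.21 and 1.29 FPKM, 0.760 and 0.821 FPKM, and 1.95 and 1.54 FPKM, with no call. Mmp15 was higher in parental cells and lower in KD cells, at 8.03 and 7.48 FPKM untreated and 4.17 and 4.89 FPKM at 24 h (-0.67 ± 0.157, adjusted p = 0.00431). In C cells it went from 6.10 and 3.77 FPKM to 2.84 and 2.72 FPKM at 8 h, then 3.40 and 3.86 FPKM at 24 h, called at 8 h only. Whether the settings differ was tested only between C and KD.

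Counts in the shRNA table, which had 11450 genes tested, were as follows. In C cells 7 of 19 genes were higher and 6 lower at 8 h, against 19.4 and 44.9% of all genes, and 11 were higher and 3 lower at 24 h, against 25.5 and 45.1%. In KD cells 6 were higher and 6 lower at 8 h, against 23 and 44.8%, and 10 were higher and 5 lower at 24 h, against 28.6 and 43.3%. Mmp9, Adamts4 and Adamts12 are in these counts only through their 24 h libraries, so the counts describe the genes and do not support a trend. Changes of at least 2-fold on the log2(FPKM + 1) scale were called for 5 genes in C cells at 8 h and 10 at 24 h (8.58 and 14.6% of all genes), and for 6 and 10 genes in KD cells (10.7 and 15.4%). The median of all genes was -0.14 and -0.13 in C cells at 8 and 24 h and -0.13 and -0.10 in KD cells, and quantile normalization moved it to -0.02 and 0, and to -0.03 and 0. After that scaling the whole table had 3082 genes higher and 3624 lower in C cells at 8 h, in place of 2223 and 5137, and 3900 and 3901 at 24 h, in place of 2924 and 5169. In KD cells it had 3432 higher and 4036 lower at 8 h, in place of 2629 and 5132, and 4126 and 4103 at 24 h, in place of 3277 and 4959. No called gene of the group changed direction under it.

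KD and C cells were compared at each time. Mmp28, Mmp24 and Timp2 were higher in KD cells at all 3 times. How many of all genes were higher at all 3 times was not computed. Mmp28 was at 10.5 and 9.75 FPKM in untreated KD cells against 6.49 and 6.11 FPKM in C cells, 7.07 and 6.35 FPKM against 2.90 and 2.85 FPKM at 8 h, and 4.0 and 4.45 FPKM against 1.97 and 1.82 FPKM at 24 h. No library overlapped, and the difference was 0.61, 0.99 and 0.85 (SE 0.0703, adjusted p = 0.000918, 6.14e-05 and 0.000157). Mmp28 thus fell with TGF-β in both cell types, from a higher level in KD cells. Its call held under every alternative at each time. Mmp24, a membrane-type enzyme known from the nervous system, was at 5.34 and 5.52 FPKM in untreated KD cells against 3.97 and 3.63 FPKM in C cells, at 4.28 and 4.68 FPKM against 3.07 and 3.26 FPKM at 8 h and at 6.05 and 5.57 FPKM against 4.24 and 4.36 FPKM at 24 h (0.42, 0.40 and 0.36, SE 0.0636, adjusted p = 0.00325, 0.00211 and 0.0046). Mmp24 overlaps BC029722 in the annotation.

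Timp2 was at 323 and 330 FPKM in untreated KD cells against 279 and 242 FPKM, at 297 and 295 FPKM against 184 and 176 FPKM at 8 h, and at 386 and 359 FPKM against 266 and 265 FPKM at 24 h. The difference was 0.33, 0.71 and 0.49 (SE 0.0634, adjusted p = 0.00939, 0.000137 and 0.00121), and the untreated call was lost without either untreated KD library (adjusted p up to 0.0694). Timp3 was at 12.9 and 12.9 FPKM against 9.84 and 11.6 FPKM untreated, at 129 and 129 FPKM against 75.4 and 72.5 FPKM at 8 h, and at 160 and 152 FPKM against 133 and 116 FPKM at 24 h. It was called higher in KD cells at 8 h (0.79 ± 0.08, adjusted p = 0.000242) and at 24 h (0.33 ± 0.08, adjusted p = 0.0172), the latter not without 1 C library at 24 h (adjusted p = 0.117). Timp1 was at 63.2 and 67.5 FPKM in untreated KD cells, 425 and 414 FPKM at 8 h, then 638 and 440 FPKM at 24 h. Its 8 h difference of 0.47 ± 0.136 was called (adjusted p = 0.0275) but not without any 1 of the 4 libraries of that time (adjusted p of 0.0912 to 0.112), and its 24 h difference of 0.36 was not (adjusted p = 0.0812). The KD library with the lower Lmnb1 at 24 h was the one at 638 FPKM, whereas Mmp14 was lower in that library. The summed FPKM of all genes was 699130 in it and 910348 in the other. A relation between Lmnb1 and Timp1 was not tested.

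Mmp14 was at 88.7 and 86.5 FPKM in untreated KD cells, 111 and 116 FPKM at 8 h, then 209 and 227 FPKM at 24 h. It was above all C libraries at 8 h (0.30 ± 0.0561, adjusted p = 0.00401) and at 24 h (0.22 ± 0.0561, adjusted p = 0.0198), the 24 h call being lost without either C library or 1 KD library (adjusted p up to 0.133). Untreated KD cells differed by 0.09 with no call. Mmp15 was higher in KD cells untreated, at 8.03 and 7.48 FPKM against 6.10 and 3.77 FPKM (0.59 ± 0.157, adjusted p = 0.0327, lost without 1 C or either KD library, adjusted p up to 0.163), and at 8 h, at 4.85 and 4.72 FPKM against 2.84 and 2.72 FPKM (0.62 ± 0.157, adjusted p = 0.0164). The 8 h call was lost without any 1 of its 4 libraries (adjusted p up to 0.0806).

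Mmp13 had a crossing pattern. It was at 14.0 and 14.6 FPKM in untreated KD cells against 11.6 and 11.7 FPKM in C cells, at 4.12 and 3.94 FPKM against 3.37 and 2.47 FPKM at 8 h, and at 0.789 and 1.13 FPKM against 2.48 and 1.96 FPKM at 24 h. KD cells were higher at 8 h (0.37 ± 0.124, adjusted p = 0.0463, lost without 1 C or either KD library, adjusted p up to 0.285) and lower at 24 h (-0.72 ± 0.124, adjusted p = 0.00425). Mmp9 was lower in KD cells at 24 h, at 2.08 and 2.22 FPKM against 2.68 and 2.95 FPKM (-0.27 ± 0.0585, adjusted p = 0.0103, lost without 1 C library at 24 h, adjusted p = 0.0841), and it was listed at 0 in both untreated KD libraries. Mmp10 was higher in untreated KD cells, at 1.90 and 2.72 FPKM against 1.21 and 1.29 FPKM (0.55 ± 0.144, adjusted p = 0.0304), and Mmp11 lower, at 2.22 and 2.07 FPKM against 4.71 and 3.05 FPKM (-0.61 ± 0.166, adjusted p = 0.034). Both of these calls were lost without any of 3 of the 4 untreated libraries (adjusted p up to 0.192 and 0.156).

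Of the ADAMTS genes, Adamts15 was higher in KD cells untreated, at 2.37 and 1.91 FPKM against 1.27 and 1.00 FPKM (0.55 ± 0.121, adjusted p = 0.0155, lost without 1 C or 1 KD library, adjusted p up to 0.118), and at 8 h, at 2.30 and 2.16 FPKM against 0.926 and 0.811 FPKM (0.79 ± 0.121, adjusted p = 0.0017). At 24 h it was at 2.57 and 1.92 FPKM against 2.23 and 1.81 FPKM, and the groups overlapped. Adamts1 was lower in untreated KD cells, at 3.77 and 3.44 FPKM against 9.57 and 5.93 FPKM (-0.90 ± 0.229, adjusted p = 0.0274), and Adamts7 too, at 0.659 and 0.782 FPKM against 1.86 and 1.29 FPKM (-0.57 ± 0.141, adjusted p = 0.0241). Each of these 2 calls was lost without 1 C library or either KD library (adjusted p up to 0.137 and 0.139), and the 2 untreated C libraries were themselves apart. Adamts12 was higher in KD cells at 24 h, at 1.47 and 1.51 FPKM against 0.601 and 0.853 FPKM (0.53 ± 0.0737, adjusted p = 0.00153), but it passed the filter of the shRNA table only through these KD libraries, so this call was in part set by the filter. No comparison of KD with C called Adamts4, Adamts6, Adamts10 or Adamts13, the protease of von Willebrand factor.

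**Figure D2:**
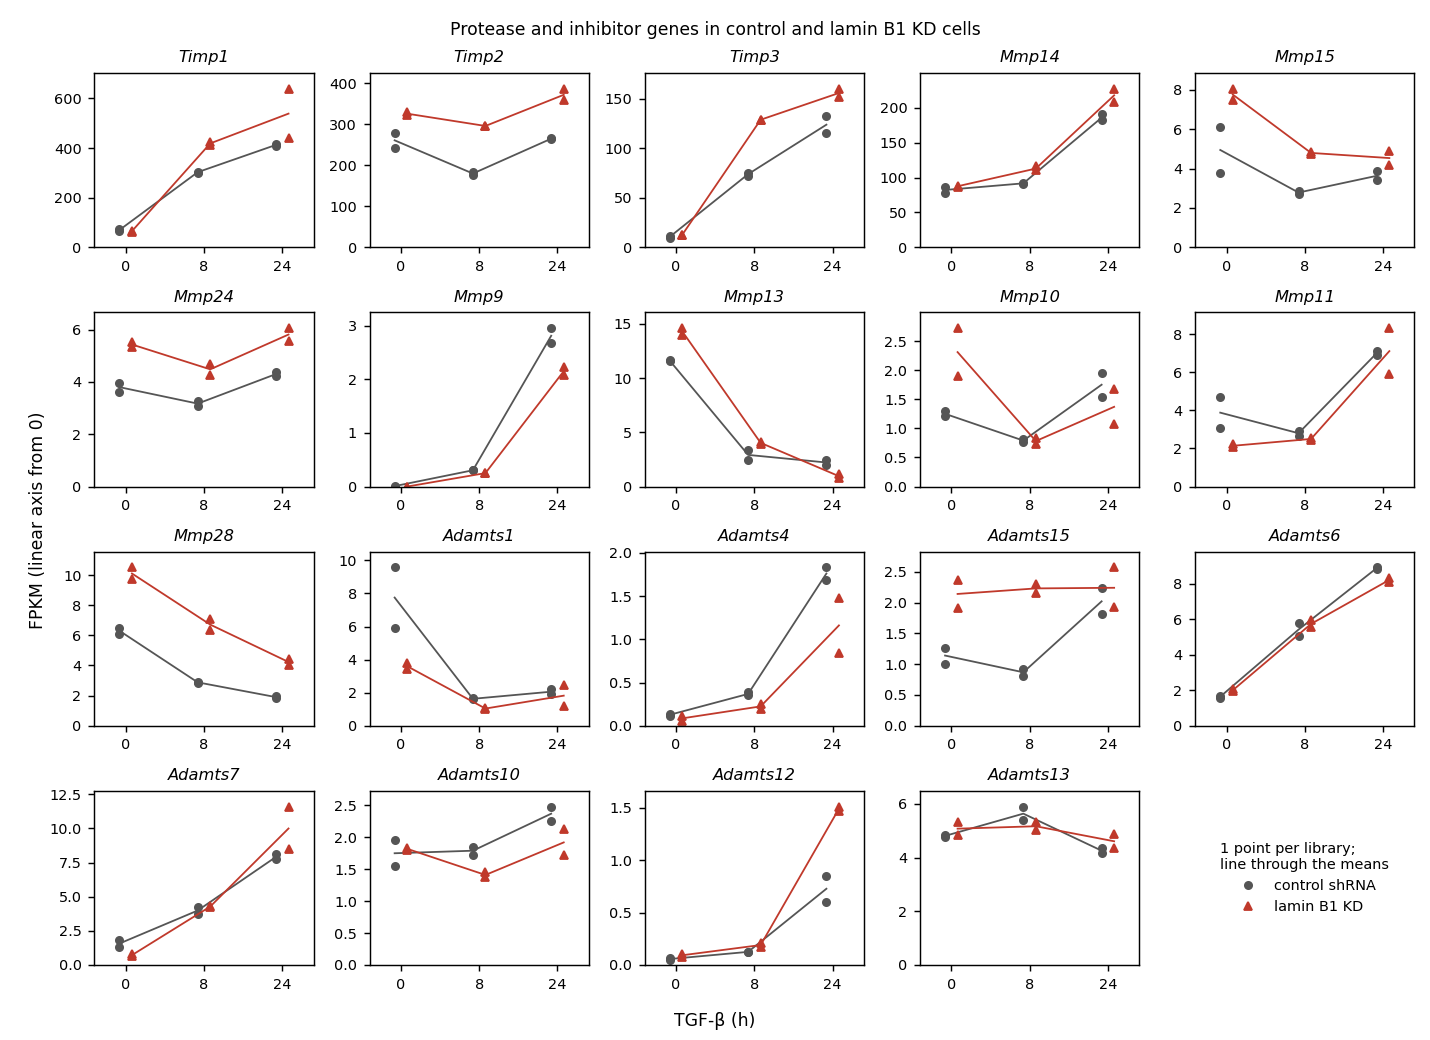
FPKM of the 19 tested genes in control (gray circles) and lamin B1 KD cells (red triangles) on a linear y axis from 0, against hours of TGF-β (x axis, time points evenly spaced). Each point is 1 of 2 libraries and lines join the means; Mmp28, Mmp24 and Timp2 are higher in KD cells at every time, and Mmp13 lies above the control at 8 h and below it at 24 h.

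Among untreated cells 6 genes were higher and 3 lower in KD than in C cells, against 10.6 and 9.09% of all genes. At 8 h 9 were higher and 0 lower by limma at an adjusted p under 0.05, against 19.3 and 16.5%. At 24 h 6 were higher and 2 lower, against 16.8 and 11.5%. After quantile normalization the whole table had 1613 genes higher and 1611 lower at 24 h, in place of 1924 and 1317. At 8 h it had 2051 and 2026, in place of 2212 and 1892. Under that scaling limma lost the calls of untreated Mmp10 (adjusted p = 0.0597) and of Timp1 at 8 h (0.066). The 24 h calls of Mmp14 (0.104) and Timp3 (0.0708) were lost too. Of the 9 untreated calls 2 held under every alternative (Mmp24 and Mmp28), of the 9 at 8 h 6 did, and of the 8 at 24 h 2 (Mmp28 and Timp2). The untreated count of 9 fell to 3 without either untreated KD library and to 5 without the first C library, and the 24 h count of 8 to 5 without the second C library.

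Whether KD changed the response to TGF-β was tested as the difference between the KD and C responses. At 8 h only Timp3 was called, against 4.06% of all genes, and 7 of the 19 genes had an unadjusted p under 0.05. Timp3 rose by 3.22 in KD cells and by 2.68 in C cells, a difference of 0.54 ± 0.113 (adjusted p = 0.0404). At 24 h Mmp13, Adamts7 and Adamts12 were called, against 4.72% of all genes, and 11 had an unadjusted p under 0.05. The share of all genes under that unadjusted threshold was not computed, so the counts of 7 and 11 have no comparison. The Mmp13 difference from untreated was -2.97 in KD cells and -1.98 in C cells, and the difference was -1.0 ± 0.175 (adjusted p = 0.0219). Adamts7 rose by 2.67 and 1.80, a difference of 0.86 ± 0.199 (adjusted p = 0.0468), and Adamts12 by 1.19 and 0.70, a difference of 0.49 ± 0.104 (adjusted p = 0.0387). Adamts12 entered this test only through its KD libraries at 24 h, and with a pseudocount of 0.1 its adjusted p was 0.227. With a replicate block the adjusted p was 0.0604 for Timp3 and 0.0702 for Adamts7. All 4 calls were lost when some single libraries were left out, including either untreated KD library for each of the 4, and the highest adjusted p without a single library was 0.152 for Timp3, 0.106 for Mmp13, 0.175 for Adamts7 and 0.143 for Adamts12.

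**Figure D3:**
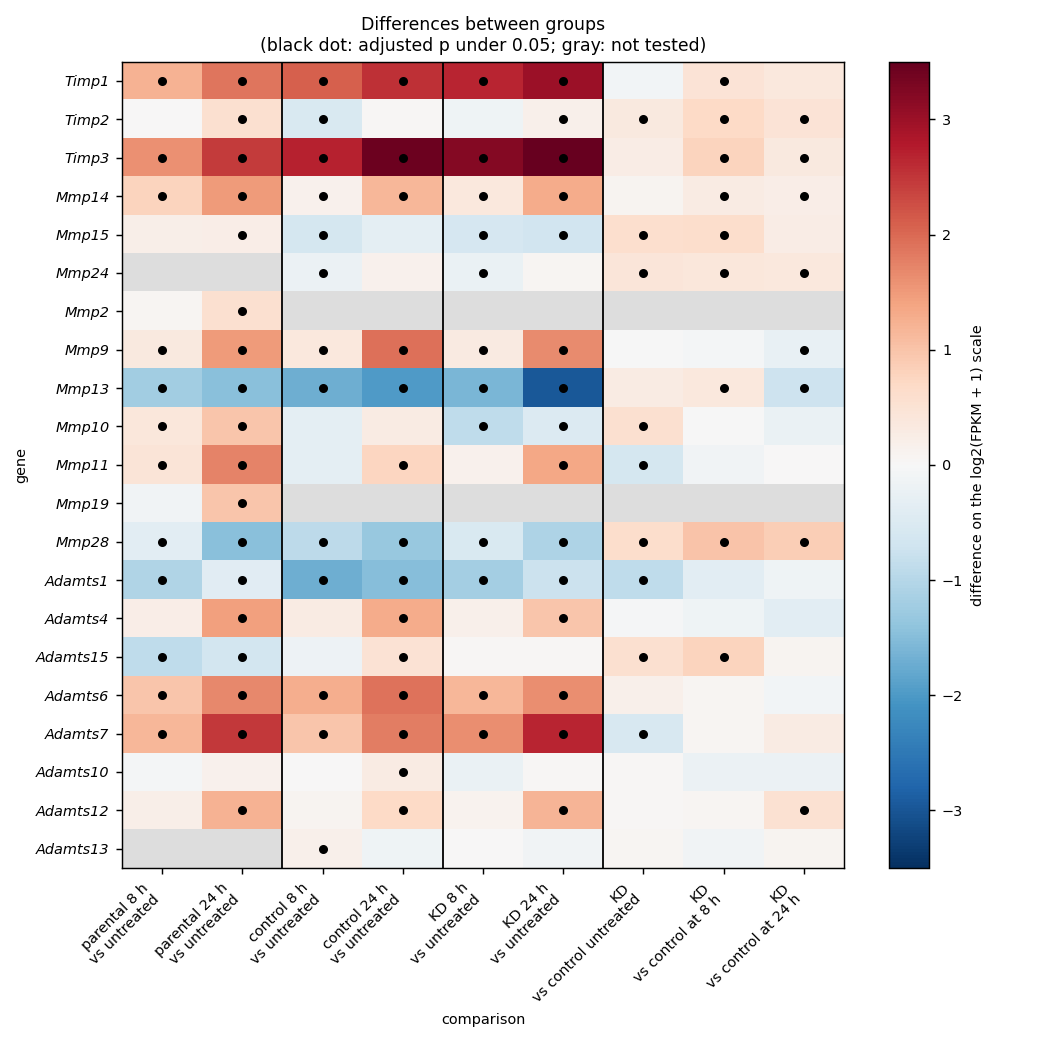
Differences on the log2(FPKM + 1) scale (color, lower in blue and higher in red) for the 21 genes tested in either table (rows) in 9 comparisons (columns). Black dots mark an adjusted p under 0.05 and gray cells genes not tested in that table; the time responses are strong for Timp1, Timp3 and Adamts7, and the KD differences are paler, the largest being Mmp28 at 8 h (0.99).

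Of the genes below the filter, some had groups that did not overlap, and examples are given here as values only. Groups of 2 libraries can separate without a real difference. How often low genes separated in this way was not counted, so no effect is read from these examples. Mmp17, a membrane-type enzyme, was at 0.342 and 0.350 FPKM in untreated KD cells and at 0.144 and 0.134 FPKM in C cells. Mmp2, tested only in parental cells, was at 0.847 and 1.14 FPKM in KD cells at 24 h and at 0.393 and 0.487 FPKM in C cells. Mmp19 was at 0.517 and 0.368 FPKM in untreated C cells and at 0.890 and 0.943 FPKM at 24 h. Adamts16 was at 0.0170 and 0.00328 FPKM in untreated C cells and at 0.439 and 0.439 FPKM at 24 h.

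Genes that act on or beside these proteases were followed as a list of 27, of which 17 were tested in parental cells and 16 in the shRNA table. In parental cells 7 were higher and 7 lower at 8 h, against 22.4 and 32.1% of all genes tested, and 8 were higher and 6 lower at 24 h, against 33.4 and 37.1%. In C cells at 24 h 8 were higher and 5 lower, against 25.5 and 45.1%, and in KD cells 9 and 4, against 28.6 and 43.3%. Furin, the convertase that activates Mmp14 and Mmp11, was at 49.9 and 49.6 FPKM untreated, 106 and 96.1 FPKM at 8 h, then 90.0 and 85.1 FPKM at 24 h in parental cells (1.00 ± 0.054 at 8 h, adjusted p = 3.54e-05). Pcsk6, another convertase, fell from 7.05 and 6.75 FPKM to 1.05 and 0.958 FPKM at 24 h (-1.98 ± 0.102, adjusted p = 4.7e-06).

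Adam12 and Adam8, membrane-bound relatives of the ADAMTS enzymes, rose. Adam12 was at 1.63 and 1.70 FPKM untreated and at 28.8 and 27.6 FPKM at 24 h (3.45 ± 0.0624, adjusted p = 1.85e-07). Adam8 was at 7.60 and 8.78 FPKM untreated, 36.4 and 30.3 FPKM at 8 h, then 25.3 and 26.3 FPKM at 24 h. In the shRNA table Adam8 was at 51.3 and 53.9 FPKM in KD cells at 24 h against 25.7 and 26.4 FPKM in C cells, and its response differed by 1.1 ± 0.0902 (adjusted p = 0.00079). Adam15 (1.14) and Adamtsl3 (1.18) also rose by more than 2-fold in parental cells at 24 h, with adjusted p = 1.03e-06 and 1.05e-05, and Adamtsl4 fell at 8 h in C cells (-1.37, adjusted p = 2.24e-06).

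The procollagen C-proteinase enhancers moved in opposite directions. Pcolce fell from 48.1 and 45.8 FPKM to 9.26 and 9.68 FPKM at 24 h in parental cells (-2.20 ± 0.0754, adjusted p = 1.06e-06), and Pcolce2 rose from 20.8 and 18.8 FPKM to 96.6 and 93.4 FPKM (2.21 ± 0.105, adjusted p = 3.38e-06). Lcn2, whose protein binds Mmp9, fell from 44.0 and 44.0 FPKM to 2.41 and 2.19 FPKM in parental cells, and in the shRNA table it was at 0.511 FPKM at most. Reck, a membrane-anchored Mmp inhibitor, was at 0.211 FPKM at most in all 18 libraries. Bsg, a surface protein known as an inducer of Mmp, was at 282 to 374 FPKM in all libraries and did not pass the test in the 3 parental comparisons. It was called higher in C cells at 24 h (0.14, adjusted p = 0.0129) and in KD against C cells untreated (0.14, adjusted p = 0.0442) and at 8 h (0.13, adjusted p = 0.032).

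Lamin B1 peaks were counted for a gene where a peak lay between 2500 bp before its start and its 3′ end (GENCODE M1 on mm9). There was 1 peak list per time point and no replicate, so the counts have no test. Of the 46 genes 7 (15.2%) had a peak before treatment, 20 (43.5%) after 8 h and 18 (39.1%) after 24 h. Of the 21213 genes placed, 19.7, 38.6 and 29.2% had one. The lists held 4645, 10484 and 7083 peaks, and the counts move with how many peaks were called. Peaks were present at all 3 times for 5 genes, Adamts1, Mmp15, Mmp17, Mmp28 and Timp2, and at no time for 21. These are 10.9 and 45.7% of the 46 genes, against 13.1 and 54.6% of all genes placed.

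None of the 10 genes of the chromosome 9 cluster had a lamin B1 peak at any time, expressed or not. Timp1, Timp3, Mmp2, Mmp9, Mmp19, Adamts6 and Adamts13 had none either, although Timp3 and Adamts6 rose at both times. Mmp14 (mm9 chr14:55050441-55060095) had no peak in untreated cells, a peak over its start at 8 h (chr14:55050420-55051676, score 119) and one at 24 h (chr14:55050500-55050879, score 89.0). Timp2 had peaks near its start at each time, with scores of 102, 118 and 170. Mmp15 and Mmp17 had peaks over the start with scores of 64.3 and 141 in untreated cells, 212 and 223 at 8 h and 206 and 219 at 24 h. For Mmp28 a peak over the start was scored 56.5, 50.3 and 79.9 at the 3 times. The median scores of the 3 lists were 69.8, 79.4 and 83.2. Scores were not scaled between these single lists, so no change with time is read from them.

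Peaks were also found at genes below the expression filter. Of the 21 genes tested for expression 9 had a lamin B1 peak at 8 h, and of the 25 others 11 did. Among the latter, Adamts2 had a peak over its start at 8 h and at 24 h (scores 73.0 and 180), and Adamts18, Adamts8 and Timp4 had peaks near theirs at both times with scores of 58.7 to 76.8. In untreated cells 1 of these 25 genes, Mmp17, had a peak, against 6 of the 21. The same split by expression was not computed over all genes placed, so these counts have no comparison.

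Open chromatin was counted for a gene where an ATAC peak lay within 500 bp of its start. Such a peak was listed for 3 of the 46 genes before treatment (6.52%), for 1 after 8 h (2.17%) and for 13 after 24 h (28.3%). Of all genes placed, 30.4, 24.8 and 46.7% had one. The lists held 9782, 10340 and 33811 peaks. At 24 h 11 of the 21 genes tested for expression had a peak, and 2 of the 25 others (Adamts17 and Mmp17). This split by expression was not computed over all genes placed, so it has no comparison. Adamts6, Adamts7 and Mmp17 had a peak in untreated cells and again at 24 h, and Timp2 at 8 and 24 h.

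A peak at 24 h alone was listed for 9 genes (19.6%), against 13.2% of all genes placed. Among the 9 were Timp1, Mmp14, Mmp10, Mmp28 and Adamts1. Timp1 (chrX:20446013-20447875, score 293) and Mmp14 (chr14:55049781-55053494, score 54.3) were higher at 24 h in expression, whereas Adamts1 (chr16:85800387-85804008, score 347) and Mmp28 (score 85.3) were lower. Mmp10 had the only peak of the cluster (chr9:7501936-7502617, score 127), which spans the printed window with its AP-1 letters. The median score of the ATAC list at 24 h, the longest list, was 155. The peaks of Mmp14, Mmp28 and Mmp10 were below it. Mmp13, the most abundant gene of the cluster in untreated cells, had no promoter peak at any time, nor had Timp3.

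**Figure D4:**
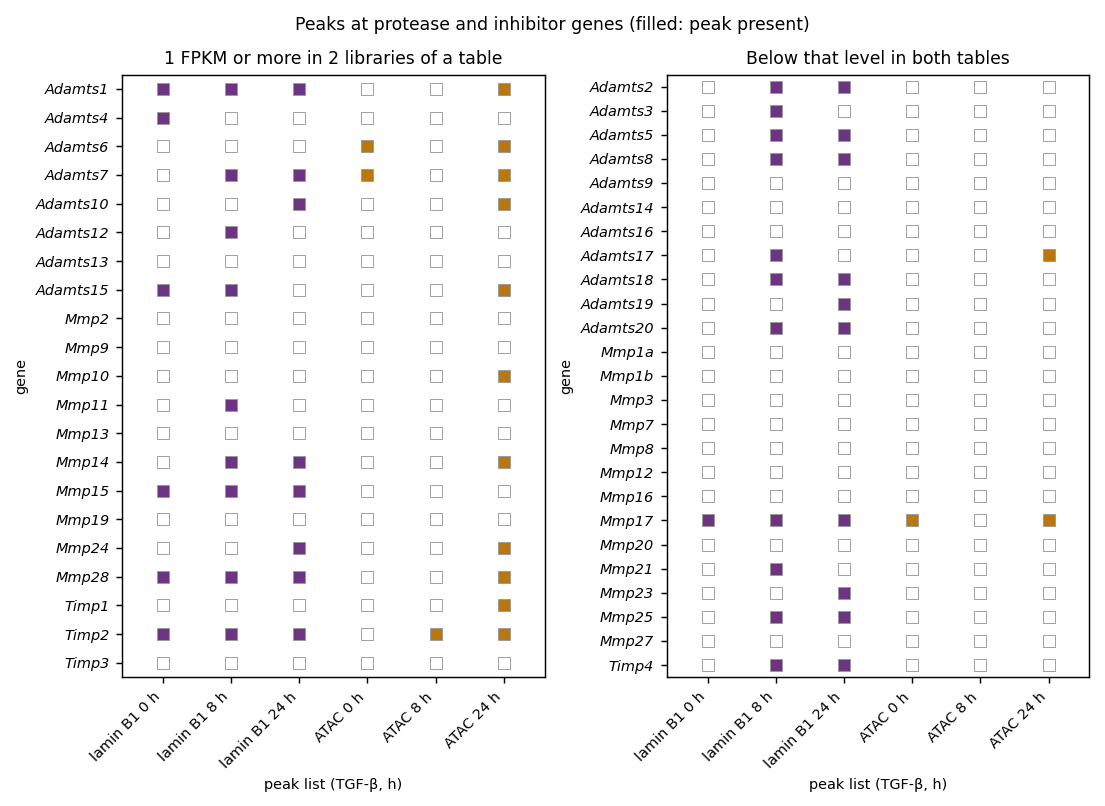
Presence of lamin B1 peaks (purple, between 2500 bp before the start and the 3′ end) and ATAC peaks (orange, within 500 bp of the start) in each of 6 peak lists (columns) for the 46 genes (rows), split by whether a gene reached 1 FPKM in 2 libraries of a table. Filled squares mark a peak, and the cluster genes Mmp1a, Mmp1b, Mmp3, Mmp7, Mmp8, Mmp12, Mmp13, Mmp20 and Mmp27 have none. ATAC peaks at 24 h are at 11 of the 21 genes that reached this level and at 2 of the 25 others. That split was not computed over all genes.

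The promoters of 4 genes with such peaks are shown for contrast with the cluster, as the 250 bases before the RefSeq start with CG pairs in capitals, 5′ to 3′ on the strand of the gene. They are Timp1 (mm9 chrX:20447042-20447291, plus strand), Mmp14 (chr14:55050185-55050434, plus strand), Timp2 (chr11:118216726-118216975, minus strand) and Mmp28 (chr11:83276543-83276792, minus strand).
Timp1: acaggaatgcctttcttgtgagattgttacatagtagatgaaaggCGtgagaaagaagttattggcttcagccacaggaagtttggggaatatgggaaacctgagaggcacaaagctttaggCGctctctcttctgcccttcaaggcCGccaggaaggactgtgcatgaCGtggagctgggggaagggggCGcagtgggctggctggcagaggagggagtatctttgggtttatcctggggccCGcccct
Mmp14: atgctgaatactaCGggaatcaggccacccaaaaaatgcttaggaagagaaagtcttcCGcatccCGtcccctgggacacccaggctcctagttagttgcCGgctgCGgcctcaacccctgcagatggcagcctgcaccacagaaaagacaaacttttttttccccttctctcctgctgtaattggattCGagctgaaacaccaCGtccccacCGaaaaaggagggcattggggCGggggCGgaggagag
Timp2: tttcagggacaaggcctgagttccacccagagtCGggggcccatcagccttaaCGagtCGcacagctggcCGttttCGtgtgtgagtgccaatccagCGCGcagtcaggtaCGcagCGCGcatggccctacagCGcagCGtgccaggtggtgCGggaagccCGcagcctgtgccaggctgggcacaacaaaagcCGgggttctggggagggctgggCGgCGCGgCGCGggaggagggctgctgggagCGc
Mmp28: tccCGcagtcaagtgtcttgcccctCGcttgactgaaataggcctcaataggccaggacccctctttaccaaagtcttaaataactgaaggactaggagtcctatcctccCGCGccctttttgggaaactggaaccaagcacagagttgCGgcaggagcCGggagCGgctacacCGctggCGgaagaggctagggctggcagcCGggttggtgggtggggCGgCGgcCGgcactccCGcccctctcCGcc

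They hold 6, 10, 21 and 15 CG pairs. The windows of Timp2 and Mmp28, whose genes had lamin B1 peaks at all 3 times, overlapped a lamin B1 peak in each list. The Mmp14 window overlapped a lamin B1 peak at 8 h and an ATAC peak at 24 h, and the Timp1 window overlapped an ATAC peak at 24 h only.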

How the data were processed

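RNA-seq, lamin B1 ChIP-seq and ATAC-seq files of NMuMG cells were used; Hi-C was not analysed here. The authors deposited FPKM values per gene and library in 2 tables, made separately, and peak lists with a MACS score per peak. The submitters' processing notes name Bowtie, TopHat, Cufflinks and mm9; versions and the gene annotation are not given in the sources used here. The FPKM tables have no header line, and columns were assigned from the order in each table's name; parental columns carry no replicate number. Genes at 1 FPKM or more in at least 2 libraries were tested with limma 3.58.1 (R 4.3.3, trend) on log2(FPKM + 1), which understates changes of low genes, with all libraries of a table in a single fit and Benjamini-Hochberg adjustment over all genes tested. The fit was checked on simulated data. The alternatives were a pseudocount of 0.1, no filter, quantile normalization, only the groups compared, leaving out each library, and a replicate block. Peaks were joined to GENCODE M1 genes on mm9 with an overlap of at least 1 bp. Every gene of the rule is reported, those that passed the filter with all values, the rest by their highest value; list genes are named where called at 2-fold, plus Reck and Bsg. Sequences are from RefSeq. The members and lists were chosen with earlier results of these data known. Python 3.11.15 was used for joins and figures.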

Additional observations from a re-analysis of the deposited data

Results flagged for a closer look

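A test of the difference between the KD and C responses to TGF-β called 4 genes in the fit of all libraries. Timp3 at 8 h differed by 0.54, with FPKM values of 129 and 129 in KD cells and 75.4 and 72.5 in C cells from starting values of 12.9 and 12.9 and of 9.84 and 11.6. At 24 h Adamts12 differed by 0.49, Adamts7 by 0.86 and Mmp13 by -1.0. None of these 4 calls held under every alternative: the call was lost in 10 of 13 for Timp3, 7 of 11 for Adamts12, 9 of 13 for Adamts7 and 4 of 13 for Mmp13. Adamts12 was tested only because its KD libraries at 24 h passed the filter. The Adamts7 difference rests in part on untreated cells, where KD cells were lower (0.659 and 0.782 FPKM against 1.86 and 1.29 FPKM). For Mmp13 the KD libraries at 24 h, at 0.789 and 1.13 FPKM, were the lowest of the table. Groups had 2 libraries, so no single library could be tested as standing apart.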

How the results depend on the processing

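Of 1107 values of called genes under an alternative, 977 kept their direction and call, 130 lost the call and 0 reversed; 99 of the 130 calls were kept under every alternative run. With no filter 26 genes were called in C cells at 24 h (14 with it) and 25 in KD cells (15), since more of the 46 genes are then tested. With only the groups compared, KD against C called 4 untreated and 2 at 24 h. The difference in response called at 8 h 0 genes with a pseudocount of 0.1, 0 with no filter, 0 after quantile normalization and 2 with only the groups compared, and at 24 h 5 with no filter and 0 with only the groups compared; the cause was not tested. After quantile normalization the difference at 24 h was called higher for 246 and lower for 267 of all genes, in place of 313 and 227. Leaving out 1 library gave 10 to 12, 13 to 17 and 11 to 17 calls in the parental comparisons, 10 to 12 and 13 to 15 in C cells, 11 to 12 and 11 to 15 in KD cells, 3 to 7, 6 to 7 and 5 to 9 for KD against C, and 0 to 5 for both differences in response. For the difference at 8 h the count was 5 without the second untreated C library and 0 without either KD library of 0 or 8 h or either C library of 8 h; at 24 h it was 5 without the second untreated C library or the first KD library of 24 h, and 0 without either untreated KD library or the first C library of 24 h. Same-numbered libraries of most shRNA groups did not deviate together (2 of 15 group pairs with a correlation over 0.1, range -0.14 to 0.37). The 2 pairs were C with KD cells at 24 h (0.37) and KD cells untreated with those at 24 h (0.18). These correlations do not settle whether equal numbers mark paired samples. With the replicate block 0 genes were called in the difference at 8 h. No paired analysis was possible for parental cells because their columns carry no replicate number. With peaks at or above the median score of a list, lamin B1 peaks remained at 3, 8 and 7 genes and ATAC peaks at 0, 0 and 6; within 2500 bp of the start, 2 genes had an ATAC peak at 8 h. With 2 libraries a group and unknown depth, small differences at low FPKM are not detectable, and p-values measure the spread between these libraries.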

Other observations

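Adamts13 and Mmp24 differed in level between the 2 tables, which were made separately. Adamts13 was at most at 0.0461 FPKM in the 6 parental libraries and at 4.17 to 5.90 FPKM in all 12 libraries of the shRNA table. Mmp24 was at most at 0.508 FPKM in parental libraries and at 3.07 to 6.05 FPKM in the shRNA table. For neither gene did any parental library reach the level of an shRNA library, and the cause was not tested.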
